A study of Danio rerio with 15 samples.

Results

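A set of 10 genes of melanin production was followed in zebrafish larvae of the wild-type strain AB (Danio rerio) exposed to TCPMOH or to TCPM. They were all rows of the deposited tables whose symbol was tyr, dct, tyrp1a, tyrp1b, pmela, pmelb, oca2, slc45a2, slc24a5 or mitfa, which gave 10 of 36351 genes, each with a single row per table. The set was chosen by function, with the deposited log2 fold changes of both compounds against DMSO in view. The fold changes of the 10 and their p-values in the authors' deposited tables are therefore a description of these genes and no independent test of them.

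Melanin is the dark pigment of the fish's melanophores, which arise from the neural crest, and of the retinal pigment epithelium behind the photoreceptors. It is made inside melanosomes, organelles related to lysosomes, where tyrosinase oxidises tyrosine, the related enzymes Dct and Tyrp1 process the intermediates, and Pmel fibrils hold the product. Membrane carriers set the ions and pH that tyrosinase needs, and the transcription factor Mitfa is required for melanophores to form.

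Transcripts were measured by stranded mRNA sequencing of pooled whole larvae, 8 to 10 per pool, at 100 hours after fertilization. From 24 to 100 hours the water held 50 nM TCPMOH, which is tris(4-chlorophenyl)methanol, 50 nM TCPM, which is tris(4-chlorophenyl)methane, or, for the controls, 0.01% DMSO by volume. The molecules differ at the central carbon, which bears a hydroxyl group in TCPMOH and a hydrogen in TCPM. Each of the 3 groups has 5 samples, taken from 3 experimental replicates and embryos of 20 breeding pairs, and the labels do not tie samples to these replicates. The authors' DESeq2 tables, 1 per compound, used 8 libraries each, 4 of the compound and the same 4 of DMSO, as worked out from genes with a single read. An estimated 18.1 to 25.7 M reads per library were assigned to genes in the TCPMOH table and 18.2 to 25.9 M in the TCPM table. The tables hold no value per library. Levels below are therefore group means in normalised reads that follow from the deposited mean and fold change, with the SD between pools that follows from the deposited standard error (n = 4 per group). This SD leaves out the counting error of the reads, and it rests on a spread that DESeq2 moderates across genes. For each gene and table, a single relative spread was applied to both means. The SDs of compound and DMSO are therefore not separate measures of each group's spread. The tables were normalised separately, so each compound is set against the DMSO mean of its own table. Because whole larvae were sequenced, more pigmented cells and more transcript per cell cannot be told apart.

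Of the 10 genes, 9 were higher with TCPMOH and the same 9 were higher with TCPM at an adjusted p under 0.05 in the authors' deposited tables, and none was lower. Over all genes tested, 1.54% were called higher and 1.00% lower with TCPMOH, 1.27% were called higher and 0.616% lower with TCPM, and 0.754% of 21489 genes tested in both tables were called higher in both. At an unadjusted p under 0.05 in DESeq2 there were 2080 of 21491 genes with TCPMOH and 1915 of 22223 with TCPM. The exception was mitfa, the regulator. Summed over the 10 genes, the transcripts made up 0.0679% of normalised reads in TCPMOH larvae and 0.0376% in the DMSO larvae of that table. Their share was 0.0613% in TCPM larvae and 0.0376% in the DMSO larvae of that table. The summed normalised reads of the 10 genes had a ratio of 1.83 for TCPMOH over DMSO and 1.68 for TCPM over DMSO. The median log2 fold change of the 10 genes, as deposited and shrunken toward 0 by the authors, was 0.68 with TCPMOH and 0.56 with TCPM, beside medians of -0.0024 and 0.00028 over all genes tested. Fold values below are before shrinkage, and log2 values are as deposited, compound over DMSO.

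**Figure D1:**
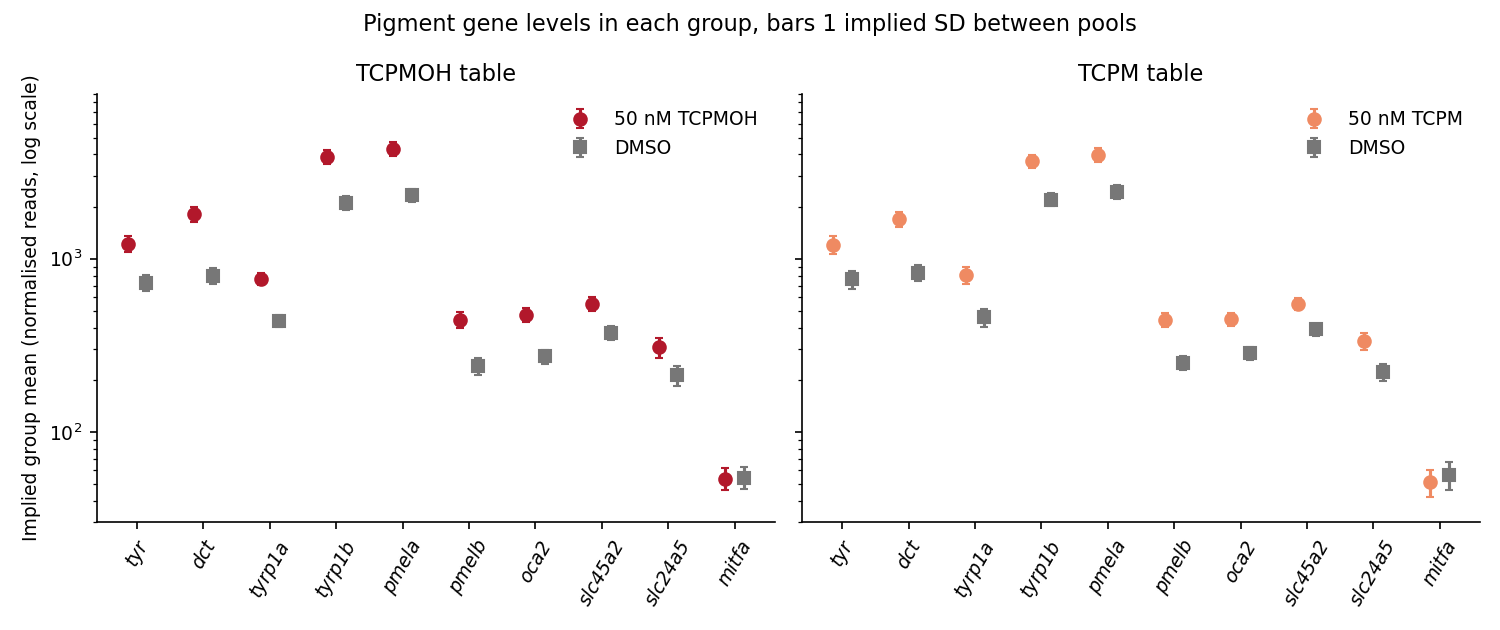
Implied group mean of each pigment gene in normalised reads (log axis) for 50 nM TCPMOH and DMSO (left) and for 50 nM TCPM and DMSO (right). Bars are 1 SD between pools implied by the deposited standard error, without counting error, with 4 libraries per group. Compound and DMSO share a single relative spread per gene and table. For 9 genes the compound lies above DMSO by more than the bars, and for mitfa the bars overlap.

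Among the enzymes, dct had the highest fold of the 10 genes with both compounds. It encodes dopachrome tautomerase, which converts an intermediate downstream of tyrosinase. It averaged 1812 ± 189.9 normalised reads in TCPMOH larvae and 796 ± 83.4 in DMSO larvae, a 2.28-fold increase with a 95% interval of 1.96 to 2.65. In TCPM larvae dct averaged 1700 ± 174, against 831 ± 84.8 in DMSO larvae, which is 2.05-fold (95% interval 1.77 to 2.37). In the authors' deposited tables the log2 fold change of dct was 0.99 ± 0.093 (SE, DESeq2 adjusted p = 1.16e-23) for TCPMOH and 0.83 ± 0.087 (SE, adjusted p = 2.16e-18) for TCPM. By p-value dct stood at rank 27 of 21491 genes with TCPMOH and at rank 18 of 22223 genes with TCPM.

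Tyr encodes tyrosinase, which starts the pathway and without which no melanin forms. It averaged 1222 ± 129.95 normalised reads in TCPMOH larvae and 728 ± 77.4 in DMSO larvae, a fold of 1.68 (95% interval 1.44 to 1.96). In TCPM larvae tyr averaged 1207 ± 138, against 759.6 ± 87.0 in DMSO larvae, a fold of 1.59 (1.35 to 1.87). The increase of tyr was the smallest among the 4 enzymes with either compound, and its interval lay below the estimate for dct in both tables. In the authors' deposited tables the adjusted p of tyr was 1.09e-08 for TCPMOH and 9.5e-06 for TCPM.

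Tyrp1a and tyrp1b are duplicates of the tyrosinase-related gene TYRP1, whose product in mammals acts late in eumelanin synthesis and stabilises tyrosinase. Tyrp1a averaged 765 ± 63.4 normalised reads in TCPMOH larvae and 439 ± 36.4 in DMSO larvae, and 807 ± 92.0 in TCPM larvae and 458 ± 52.3 in DMSO larvae. Tyrp1b averaged 3876 ± 351 in TCPMOH larvae and 2107 ± 191 in DMSO larvae, and 3681 ± 317 in TCPM larvae and 2198 ± 189 in DMSO larvae. The duplicates changed by similar amounts, 1.74-fold for tyrp1a and 1.84-fold for tyrp1b with TCPMOH, and 1.76-fold for tyrp1a and 1.67-fold for tyrp1b with TCPM. The sources used here do not say whether reads that match several places were kept, so how reads were split between duplicates is uncertain.

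The amyloid matrix genes moved by about as much as the enzymes. Pmela encodes the fibril protein on which melanin is laid down, and pmelb is its duplicate. Pmela averaged 4324 ± 388 normalised reads in TCPMOH larvae and 2326 ± 209 in DMSO larvae, which is 1.86-fold (95% interval 1.64 to 2.11). In TCPM larvae pmela averaged 3990.1 ± 375 and in DMSO larvae 2426 ± 228, which is 1.64-fold (1.44 to 1.88). Pmelb averaged 444 ± 48.1 in TCPMOH larvae and 239.9 ± 26.0 in DMSO larvae, and 445 ± 40.6 in TCPM larvae and 250.2 ± 22.8 in DMSO larvae. Its folds were 1.85 with TCPMOH and 1.78 with TCPM. Adjusted p-values in the authors' deposited tables were 5.81e-19 and 1.01e-10 for pmela and 3.34e-10 and 1.36e-11 for pmelb, with TCPMOH and TCPM in that order.

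The membrane carriers rose too, and 2 of the 3 had the smallest increases among the 9 genes. Oca2 encodes a melanosomal anion channel that raises the organelle's pH. It averaged 475 ± 43.5 normalised reads in TCPMOH larvae and 273 ± 25.0 in DMSO larvae, 1.74-fold higher, and 446 ± 38.4 in TCPM larvae and 285 ± 24.6 in DMSO larvae, 1.56-fold higher. Slc45a2 encodes a carrier that also affects melanosome pH, and the gene is mutated in the zebrafish albino line. It averaged 548 ± 51.6 in TCPMOH larvae and 375 ± 35.2 in DMSO larvae, and 549 ± 44.2 in TCPM larvae and 391 ± 31.5 in DMSO larvae. Those are folds of 1.46 (95% interval 1.26 to 1.69) with TCPMOH and 1.41 (1.24 to 1.6) with TCPM.

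Slc24a5 encodes a potassium-dependent sodium and calcium exchanger and is mutated in the golden line of pale zebrafish. It averaged 308 ± 40.5 normalised reads in TCPMOH larvae and 212 ± 28.0 in DMSO larvae, and 333 ± 38.2 in TCPM larvae and 222 ± 25.4 in DMSO larvae. Its folds were 1.45 (95% interval 1.18 to 1.77) with TCPMOH and 1.5 (1.26 to 1.8) with TCPM. In the authors' deposited tables the adjusted p of slc24a5 was 0.0178 for TCPMOH, the weakest of the 9, and 0.00124 for TCPM. At a threshold of 0.01 the TCPMOH value no longer passed.

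Mitfa, the regulator that melanophores cannot form without, did not pass with either compound. It averaged 53.8 ± 7.79 normalised reads in TCPMOH larvae and 54.5 ± 7.89 in DMSO larvae, and 51.3 ± 9.28 in TCPM larvae and 56.7 ± 10.3 in DMSO larvae. The authors' deposited tables give mitfa log2 fold changes of -0.011 ± 0.121 (SE, adjusted p = 0.995) for TCPMOH and -0.068 ± 0.108 (SE, adjusted p = 0.959) for TCPM. Mitfa was the least read member and its standard error lies close to the largest of each table, where undoing the shrinkage has a pair of solutions. Their fold estimates are nearly equal (0.987 and 0.981 with TCPMOH), and their spreads and intervals differ in width. The SDs above are those of the narrower solution with TCPMOH and of the wider one with TCPM. The wider solution gives a 95% interval of 0.649- to 1.48-fold with TCPMOH and 0.66- to 1.24-fold with TCPM. An increase of mitfa by the fold seen for slc24a5 thus lies inside the wider interval with TCPMOH and outside it with TCPM. The narrower solution gives 0.75- to 1.3-fold with TCPMOH and 0.696- to 1.2-fold with TCPM. That increase lies outside both narrower intervals, so the reading with TCPMOH depends on the solution taken.

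**Figure D2:**
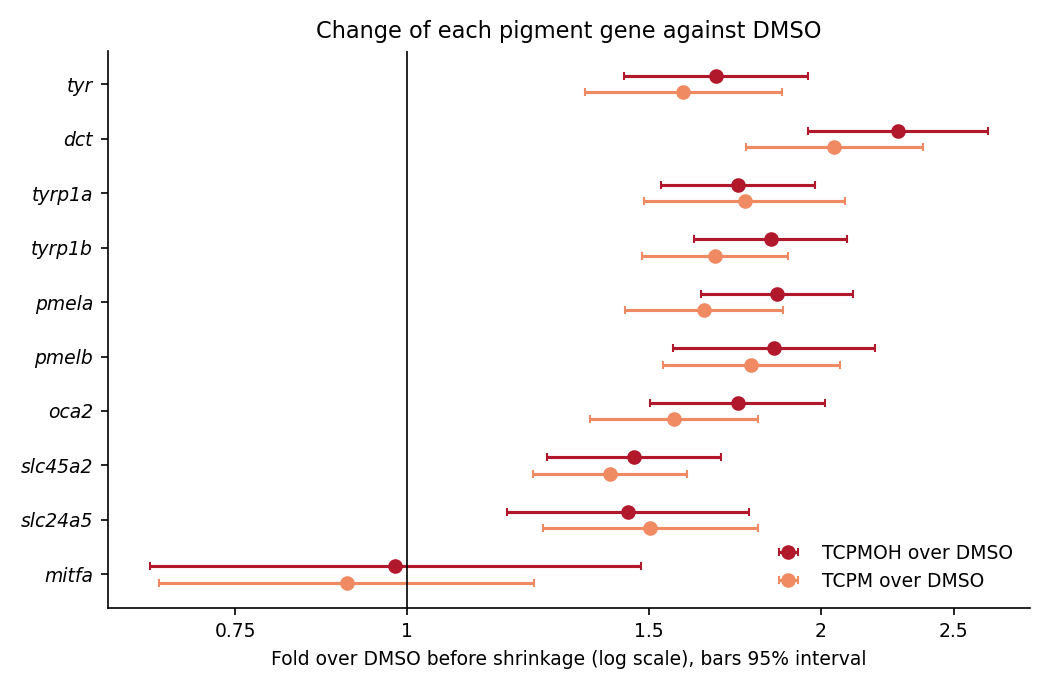
Fold over DMSO before shrinkage of the 10 pigment genes (log axis) with 95% intervals, for TCPMOH (dark) and TCPM (light), and the wider solution for mitfa. Intervals of 9 genes lie above 1 with both compounds, dct has the highest estimate, and the intervals of mitfa span 1.

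Ordered by fold with TCPMOH, the genes ran dct, pmela, pmelb, tyrp1b, tyrp1a, oca2, tyr, slc45a2, slc24a5 and mitfa. With TCPM the order was dct, pmelb, tyrp1a, tyrp1b, pmela, tyr, oca2, slc24a5, slc45a2 and mitfa. Each gene's 95% interval overlapped that of its neighbour in the order, apart from slc45a2 beside mitfa under the narrower mitfa solution. The median fold by role was 1.79 for the 4 enzymes, 1.85 for the 2 matrix genes and 1.46 for the 3 carriers with TCPMOH, and 1.72, 1.71 and 1.5 with TCPM. How far the members vary together between pools could not be estimated from summary values, so these roles were not tested against each other. The coefficient of variation between pools implied for the 9 genes was 8.29% to 13.2% in the TCPMOH table and 8.06% to 11.5% in the TCPM table. The median over all tested genes averaging 100 or more normalised reads was 9.69% and 8.41% in these tables.

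**Figure D3:**
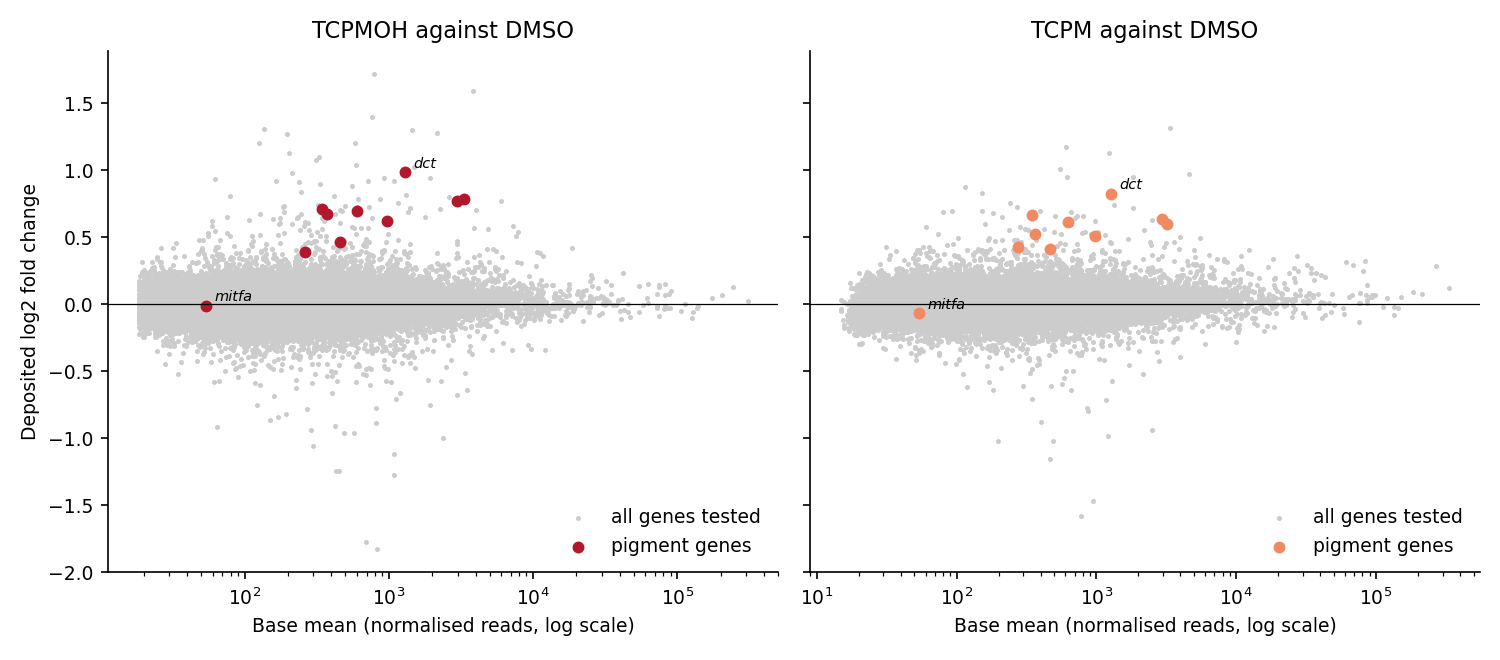
Deposited log2 fold change against base mean (normalised reads, log axis) of genes tested in both tables, with the 10 pigment genes in colour, for TCPMOH (left) and TCPM (right). Dct is the highest of the pigment genes, 8 others sit above the grey bulk, and mitfa lies near 0.

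The hydroxyl and hydrogen forms were compared at the same dose and time, as a single pair of compounds, by the difference of their deposited log2 fold changes, TCPMOH minus TCPM. The normal test was two-sided and adjusted by Benjamini-Hochberg over 22732 genes, of which 0.453% passed at 0.05, and none of the 10 pigment genes did. At an unadjusted p under 0.05 in this normal test the count was 1 of the 10, beside 1051 of all 22732. The pigment gene was pmela, with a difference of 0.19 (95% interval 0.028 to 0.35, adjusted p = 0.841). Before shrinkage the difference for pmela was 0.18, and its 95% interval, -0.010 to 0.36, included 0. For dct the difference was 0.16 (-0.014 to 0.34), for oca2 0.15 (-0.026 to 0.32) and for tyrp1b 0.13 (-0.022 to 0.29). It was 0.11 (-0.072 to 0.29) for tyr, 0.084 (-0.090 to 0.26) for tyrp1a, 0.051 (-0.12 to 0.22) for slc45a2 and 0.045 (-0.14 to 0.23) for pmelb. Slc24a5 had -0.035 (-0.24 to 0.17) and mitfa 0.057 (-0.17 to 0.28). A missed threshold does not show that the compounds act alike. The intervals of the shrunken values leave room for log2 differences from -0.24 (slc24a5) to 0.35 (pmela). Before shrinkage they were wider, down to -0.33 for slc24a5 and up to 0.37 for dct and 0.555 for mitfa.

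The estimate was larger with TCPMOH than with TCPM for 8 of the 9 genes called in both tables as deposited and for 7 of 9 before shrinkage, where tyrp1a changed sign to -0.015. Among all 162 genes called higher in both tables, 143 were larger with TCPMOH as deposited and 140 before shrinkage, which is 88.3% and 86.4%. The median log2 difference of the 162 was 0.13 as deposited and 0.14 before shrinkage, and that of the 9 pigment genes 0.11 and 0.079. The authors' shrinkage was weaker in the TCPMOH table than in the TCPM table (prior SD 0.248 and 0.216 on the log2 scale). Both comparisons used the same DMSO libraries.

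**Figure D4:**
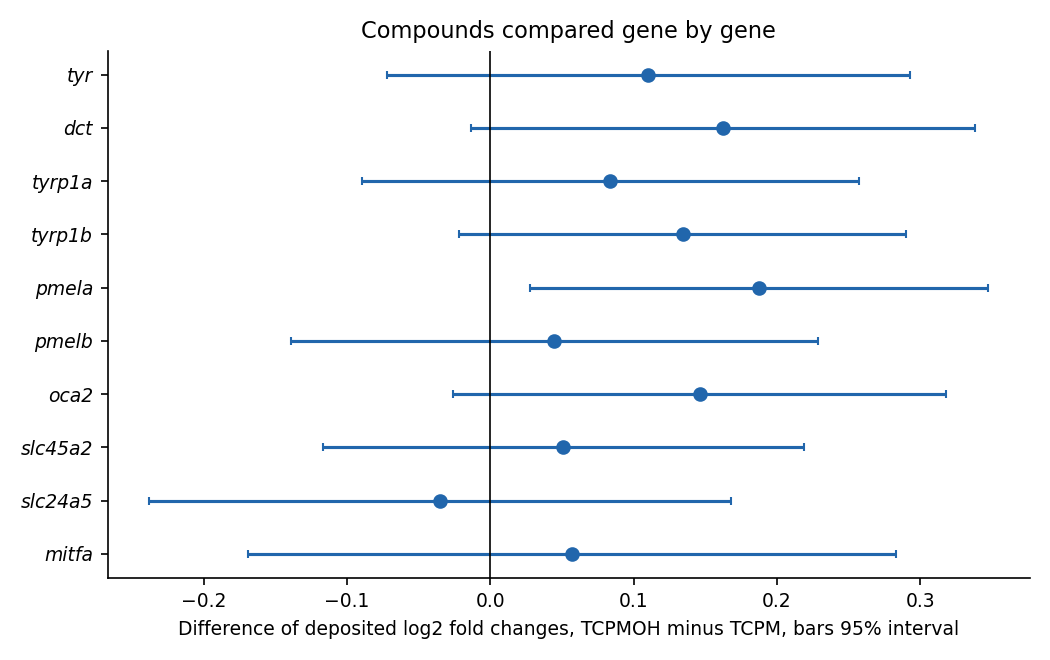
Difference between the deposited log2 fold changes of TCPMOH and TCPM for each pigment gene, with 95% intervals. Only the interval of pmela excludes 0, and after adjustment over 22732 genes it did not pass (adjusted p = 0.841). Before shrinkage the interval of pmela was -0.010 to 0.36 and included 0.

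Other genes of melanosome assembly and movement moved little as a group. Of 41 such genes, with 42 rows, 2 rose with TCPMOH and 3 with TCPM, and none fell, with medians of 0.0094 and 0.039 in log2. Over all genes tested, 1.54% were called higher with TCPMOH and 1.27% with TCPM. At an unadjusted p under 0.05 in DESeq2 there were 5 of the 42 rows with TCPMOH and 7 with TCPM, beside 2080 of 21491 and 1915 of 22223. Both measures of the list thus lay above the shares over all genes. Mlpha encodes melanophilin, which links melanosomes to myosin Va, and averaged 339.8 normalised reads in TCPMOH larvae and 218 in DMSO larvae, and 329.8 in TCPM larvae and 227 in DMSO larvae. The authors' deposited tables give mlpha log2 fold changes of 0.55 (adjusted p = 3.5e-08) and 0.43 (adjusted p = 9.4e-05). The gene zgc:91968, which RefSeq lists under the synonym mreg (melanoregulin, a melanosome transport factor in mouse), had 0.46 (adjusted p = 9.96e-05) with TCPMOH and 0.31 (adjusted p = 0.00927) with TCPM in the authors' deposited tables. Trpm1b, a cation channel gene of melanophores and retina, passed with TCPM at 0.33 (adjusted p = 0.00139), and with TCPMOH it had 0.23 (adjusted p = 0.165) in the authors' deposited tables. For the ocular albinism receptor gene gpr143 the authors' deposited tables give 0.24 (adjusted p = 0.399) with TCPMOH and 0.29 (adjusted p = 0.146) with TCPM. None of 19 tested subunits of the vacuolar ATPase, the proton pump of melanosomes and lysosomes, passed in DESeq2 with either compound, and 0 reached an unadjusted p under 0.05, with medians of 0.015 and -0.0081.

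Genes of the melanophore lineage and its signals were mostly not called. Of 23 listed genes 21 were tested. At an unadjusted p under 0.05 in DESeq2 there were 3 with TCPMOH and 5 with TCPM, beside 2080 of 21491 and 1915 of 22223 over all genes. Both of these counts lay above the shares over all genes. Among all genes tested, 1.54% were called higher after adjustment with TCPMOH and 1.27% with TCPM. Lists this short would hold few or no calls at those shares. After adjustment none of the 21 passed with TCPMOH and 1 rose with TCPM. The riser was kita, the receptor that melanophores need to migrate and survive. It averaged 785 normalised reads in TCPMOH larvae and 638 in DMSO larvae, and 858 in TCPM larvae and 665.5 in DMSO larvae, and the authors' deposited tables give 0.26 (adjusted p = 0.0934) and 0.33 (adjusted p = 0.000208). Sox10, the neural crest factor upstream of mitfa, had log2 fold changes of 0.049 (adjusted p = 0.967) and 0.021 (adjusted p = 0.993) in the authors' deposited tables. The mitfa duplicate mitfb had -0.13 (adjusted p = 0.901) and -0.0039 (adjusted p = 0.998) there. The 6 neural crest markers are also part of the lineage list. Of them 5 were tested and none passed with either compound, with medians of 0.049 and -0.031. At an unadjusted p under 0.05 in DESeq2 there were 0 with TCPMOH and 1 with TCPM. Crestin, a marker of crest cells, was close to undetected, with 4.39 normalised reads in TCPMOH larvae and 4.2 in DMSO larvae.

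A part of the markers of the retinal pigment epithelium, the other cell type that holds melanin, were higher beside the pigment genes. Among all genes tested, 1.54% were called higher and 1.00% lower with TCPMOH, and 1.27% higher and 0.616% lower with TCPM. Of 14 markers 8 rose with TCPMOH and 7 with TCPM, and none fell, with medians of 0.52 and 0.41 in log2. Their summed mean was 12350.0 normalised reads in TCPMOH larvae and 6413 in DMSO larvae, and 11735.6 in TCPM larvae and 6688.7 in DMSO larvae, ratios of 1.93 and 1.75. Rpe65a encodes the isomerase of the visual cycle that defines this cell type. It was 2.92-fold higher with TCPMOH (95% interval 2.03 to 4.22) and 2.65-fold higher with TCPM (1.84 to 3.82). The spread of rpe65a between pools was wide, with an implied coefficient of variation of 26.3% and 26.2%. Its standard error lies close to the largest of each table, where undoing the shrinkage has a pair of solutions, as for mitfa. The folds, intervals and spread of rpe65a, and the summed ratios that include it, therefore depend on which solution was taken. Rdh5, a retinol dehydrogenase of the same cycle, was 3.21-fold and 2.78-fold higher, and slc16a8, a lactate carrier of the epithelium, 2.45-fold and 2.08-fold.

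Further markers that rose with both compounds were rgra (1.96-fold with TCPMOH and 1.72-fold with TCPM), stra6, a retinol uptake receptor (1.8-fold and 1.69-fold), rlbp1b, a retinal carrier (1.83-fold and 1.68-fold) and rgrb (1.65-fold and 1.62-fold). Best1, a chloride channel gene, passed with TCPMOH at 0.48 (adjusted p = 0.00752) and had 0.30 (adjusted p = 0.176) with TCPM in the authors' deposited tables. The factor genes otx2a and otx2b did not pass, with -0.13 and 0.0059 for TCPMOH and -0.032 and -0.05 for TCPM as deposited. Rpe65b, lrata, lratb.1 and mertka did not pass either. They had -0.14, 0.12, 0.015 and 0.0098 for TCPMOH and -0.13, 0.12, -0.015 and -0.020 for TCPM as deposited. The part of the retinal pigment epithelium in the change of the pigment genes was not tested.

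The pigment cells that hold no melanin gave other values. None of 11 iridophore markers passed in DESeq2 with either compound, with medians of -0.034 and 0.075. At an unadjusted p under 0.05 there were 0 with TCPMOH and 2 with TCPM, beside 2080 of 21491 and 1915 of 22223 over all genes. After adjustment 1.54% of all genes were called higher with TCPMOH and 1.27% with TCPM. A list this short would hold few or no calls at those shares. Tfec, gpnmb and ednrba of the iridophore list are also in the lists above. Pnp4a, a purine enzyme of the reflective iridophores, had -0.17 (adjusted p = 0.632) and 0.074 (adjusted p = 0.909) in the authors' deposited tables. Of 10 xanthophore markers 1 rose with each compound, with medians of 0.034 and -0.0090. It was scarb1, a lipoprotein receptor needed for carotenoid uptake that other tissues express as well, at 0.43 (adjusted p = 0.000173) and 0.28 (adjusted p = 0.0478) in the authors' deposited tables. Gch2, which starts the synthesis of pteridine pigments, had 0.04 (adjusted p = 0.981) and -0.16 (adjusted p = 0.645) there. Gch2 is also in the cofactor list below.

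Upstream supply and hormones showed no call. Over all genes tested, 1.54% were called higher with TCPMOH and 1.27% with TCPM, so lists this short would hold few or no calls. Of 16 genes for tyrosine and its pterin cofactor none passed in DESeq2 with either compound, with medians of -0.03 and 0.0041. At an unadjusted p under 0.05 there were 3 with TCPMOH and 1 with TCPM, beside 2080 of 21491 and 1915 of 22223 over all genes. Of 15 genes of colour change hormones and receptors, 10 were tested with TCPMOH and 11 with TCPM and none passed in DESeq2, with 0 at an unadjusted p under 0.05 and medians of -0.0048 and -0.038. In the difference between the compounds none of the genes in these lists passed, beside 0.453% of all genes. At an unadjusted p under 0.05 in that normal test there were 4 of the 16 genes for tyrosine and its cofactor. No other list had more than 1, and over all genes there were 1051 of 22732.

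**Figure D5:**
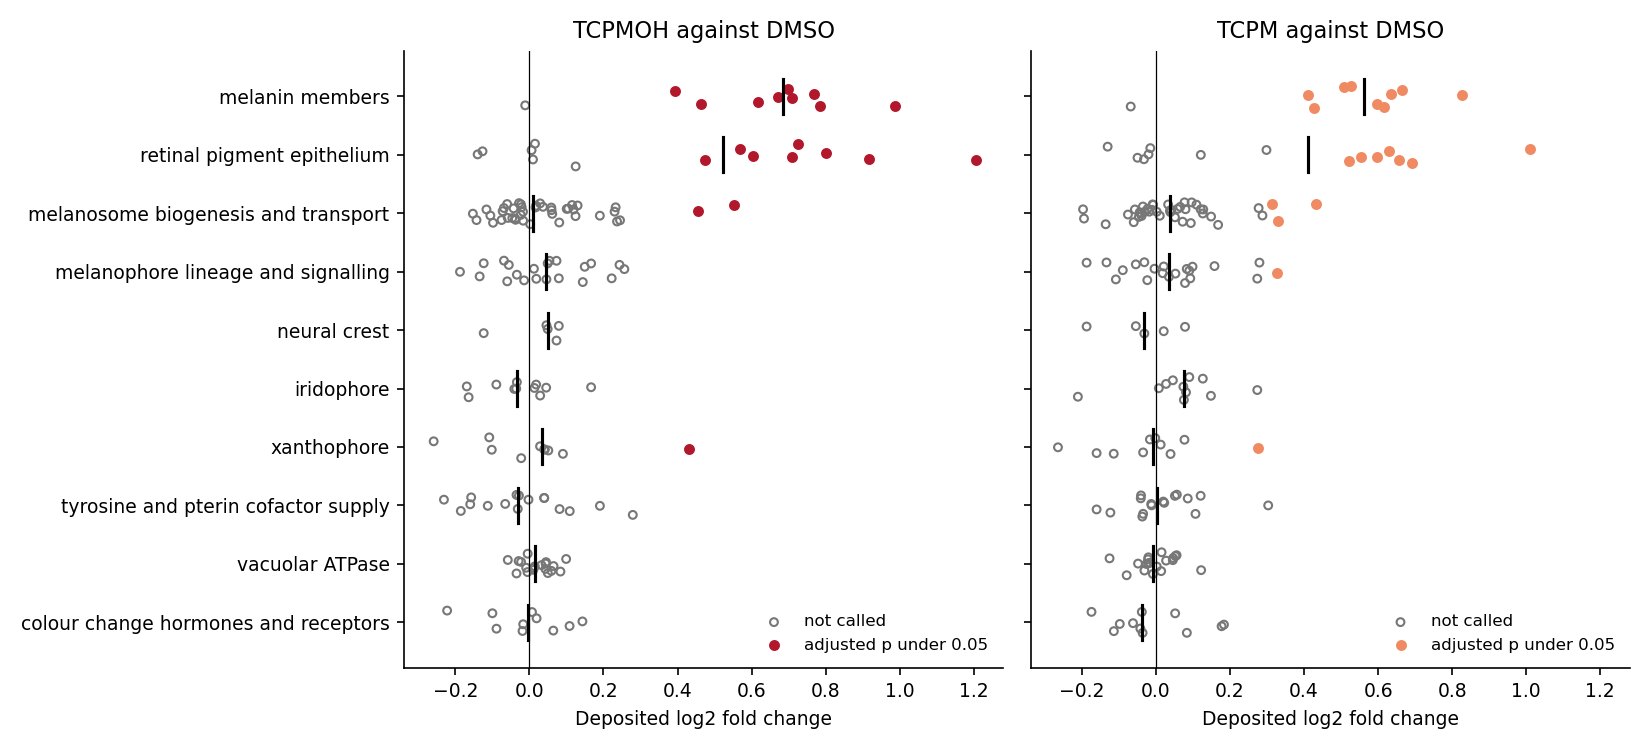
Deposited log2 fold change of every tested gene in the pigment set and in 9 related lists, with TCPMOH (left) and TCPM (right). Some genes stand in more than 1 list, and all neural crest markers are also in the lineage list. Filled points have an adjusted p under 0.05 and the black bar is the list's median. Filled points gather in the melanin set, where 9 of 10 are filled, and in the retinal pigment epithelium, with 8 and 7 of 14. Of all genes tested, 1.54% were called higher with TCPMOH and 1.27% with TCPM.

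The genes whose pair of fold changes lay nearest to that of dct, among 583 named genes called in at least 1 table and tested in both, included 1 gene of the lists above, slc16a8. By Euclidean distance over the 2 deposited log2 values they were abcg2a, an efflux transporter gene (distance 0.0955), lonrf1l (0.117), tm6sf2, a lipid export gene of the liver in mammals (0.146), npas2, a clock transcription factor (0.148), and slc16a8 (0.15). Abcg2a had 1.03 with TCPMOH and 0.74 with TCPM in the authors' deposited tables, beside 0.99 and 0.83 for dct. With a likeness measured over 2 values that share controls, this order is a description of where dct lies.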

How the data were processed

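The members and gene lists were chosen with earlier results of these data known. Named beyond the members were genes of each list called in either table, the defining marker of each list (rpe65a, pnp4a, gch2, sox10), mitfb, and the 5 genes nearest to dct. Others, such as gpr143, crestin, otx2a, otx2b and eevs, were named after their values were seen.

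The submitters' processing notes name FastQC, cutadapt, STAR, featureCounts and DESeq2 without versions, and the gene models were V4.3.2 per the file headers. No genome build is named, so no coordinates are printed. The deposited base mean is a signal, the mean of size-factor-normalised reads per gene. The deposited log2 fold change and its standard error are shrunken toward 0. The deposited Wald score is their ratio, within 2.47e-06, and the deposited p-values and adjusted p-values follow from it. There were 0 unused columns of per-sample values.

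Lone-read genes gave the libraries and their size factors. Those of 4 libraries per table were at 0 in the other table in 0 of 654 and 0 of 548 cases, so these libraries are the shared DMSO ones. Genes read in them alone had positive deposited fold changes, so all signs were turned to compound over DMSO. Shrinkage was undone with a normal prior whose SD is the largest standard error times 2. After that the DMSO means of the tables differed by an SD of 0.00924 in log2 over 16488 genes (0.117 with signs not turned), and by at most 0.0009 beyond a common scale for the 9 called pigment genes. For 603 genes with a standard error near the largest, the solution with the nearest DMSO means was taken. Their agreement was thus built in and is no check. The 9 called pigment genes are not among them. The authors' DESeq2 fit moderates the spread between genes. For the difference between the compounds the fits share DMSO libraries, so their covariance was taken as 0.5 times the product of the standard errors, and genes needed 10 normalised reads on average in each table. Undoing the shrinkage and comparing the compounds were tried on simulated data built with the same prior SD and the same covariance of 0.5. Those simulations therefore cannot test these 2 settings, and finding the libraries and turning the signs were not simulated. Python 3.11.15, scipy 1.17.1 and matplotlib 3.10.9 were used.

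Samples were grouped by title. The deposited p-values set each fold change against a standard error that holds the counting error and the moderated spread between pools. How far pools share parents or days is unknown, so the pools may not be independent.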

Additional observations from a re-analysis of the deposited data

How the results depend on the processing

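The 9 calls per compound held with no filter on low means, with a base mean of at least 100, at an adjusted p under 0.10, before shrinkage and after centring on the median of all genes. The threshold of 0.10 and the values before shrinkage could not remove a call. The former is looser than 0.05, and the latter keep the ratio of estimate to standard error. At an adjusted p under 0.01 there were 8 with TCPMOH, without slc24a5, and 9 with TCPM, while the calls over all genes were 363 with TCPMOH, against 547 at 0.05, and 262 with TCPM, against 419 at 0.05, fewer by the construction of that threshold. In the difference between the compounds no pigment gene passed under any setting run. The lowest adjusted p among the 10 ran from 0.0844, with the covariance taken from the correlation of the Wald scores, to 1.00. The genes called there numbered 15 with a covariance of 0 and 424 with the correlated one, against 103, so this count rests on that choice. The difference for tyrp1a turned to -0.015 before shrinkage. The median ratio of the implied means was 1.74 with TCPMOH and 1.62 with TCPM, or 1.61 and 1.48 with deposited folds. The median coefficient of variation between pools was 9.94% and 9.8%, or 7.83% and 7.23% with deposited standard errors. Removing each replicate in turn was not run, since the tables hold no column per library. No paired analysis was possible because the sample numbers of the groups are not shared and the tables hold no column per library.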

Other observations

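Coding genes next to the 10 pigment genes were read from RefSeq (assembly GRCz12tu, used for order only). Of 20 such neighbours 19 were in the tables and 14 were tested with each compound, with a median log2 fold change over the 19 near 0 (-0.00081 with TCPMOH and 0.0022 with TCPM). Of the 14, 1 was called higher with each compound, beside 1.54% of all genes with TCPMOH and 1.27% with TCPM. This neighbour was named after its values were seen. It was eevs, next to mitfa, whose product makes the precursor of gadusol, a UV-absorbing compound of fish eggs and larvae. In the authors' deposited tables eevs had 0.81 ± 0.097 (SE, DESeq2 adjusted p = 2.84e-14) for TCPMOH and 0.41 ± 0.086 (SE, adjusted p = 0.000325) for TCPM. The difference between the compounds was 0.41 (95% interval 0.23 to 0.59, adjusted p = 0.00442 over 22732 genes in the normal test). Over all genes 0.453% passed in that test, and none of the 10 pigment genes did. Beside dct, sox21b was tested and not called, with log2 fold changes of 0.084 for TCPMOH and 0.049 for TCPM, and gpc6b was not tested. Beside pmela, timeless was tested and not called, with -0.088 and -0.057, and mmp19 was not tested. Both neighbours of tyrp1b were tested and not called.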
